A study of Homo sapiens with 4 samples.

Results

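The olfactory receptor genes of the human genome lie in tandem arrays, and 11 of these arrays, on 5 chromosomes, were followed through S phase in single cells. They were chosen by position in the hg19 build: every bin of 80 kb in the deposited table that overlaps a listed array was a member. The arrays cover 124 positions of the 80 kb grid. The table holds 97 of them, all 97 passed the filter on calls described below, and they make up the set described here, out of 27142 bins used in all. The other positions were not analysed here.

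Olfactory receptors are G protein-coupled receptors of the sensory neurons of the nose. Each neuron expresses essentially a single receptor gene from a single allele, and most receptor genes are silent in most other cells. Expression was not measured here. The genes arose by repeated local duplication, so an array mixes intact genes with many pseudogenes. Replication timing is the order in which stretches of a genome are copied in S phase. Silent, gene-poor and heterochromatic DNA tends to be copied late, and active, gene-rich DNA early. Receptor arrays are known for asynchronous replication of their alleles, which state codes with 1 value per bin and cell cannot show.

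The cells came from HCT116, a human colorectal cancer line labelled WT, and from DKO1, a derivative of it that the labels give by name only and that is known as the double knockout of DNMT1 and DNMT3B. DNMT1 maintains DNA methylation after replication, and DNMT3B adds it to DNA that lacks it. DKO1 is a clonal line, and no treatment is listed for either line. Each line is represented by 1 S-phase library in which sorted early, mid and late S-phase cells had been pooled, with 322 HCT116 and 207 DKO1 cells and 0 cell barcodes in common. No further culture of either line was analysed here, so differences between lines and differences between libraries cannot be told apart, and no test between the lines was made.

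S-phase progress stands for how far a cell had copied its genome, as the replicated percent of called bins. The median HCT116 cell was at 52.7% and the median DKO1 cell at 48.8%. To compare the lines at matched progress, cells were placed in 6 strata of 10 points between 20 and 80% progress, which held 320 HCT116 and 206 DKO1 cells, and the strata were weighted equally. The mean over strata of the percent of called cells with a replicated bin is called its standardised share, and a high share means early replication. A bin was called different where its share differed by at least 15 points between the lines, a rule of size. Code 0 (no call) took 1.08% of all HCT116 calls and 2.80% of DKO1 calls. Intervals in brackets are exact binomial (Clopper-Pearson) 95% intervals over cells, which cover counting error only.

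In the RefSeq table of GRCh38.p14, runs of neighbouring receptor loci on the same chromosomes, assigned to the arrays by their order along the chromosome, held 454 receptor loci, of which 252 were protein-coding and 202 pseudogenes. The largest runs were those of 11q11 (106 loci, from OR4A11P to OR5BP1P, 46 of them coding) and 11p15 (103 loci, from OR55B1P to OR52W1, 55 coding). The 1q44 run, from OR2B11 to OR14I1, had 56 loci with 43 coding genes. The smallest was 9q31, with 12 loci and 8 coding genes. Coordinates below are hg19 except where GRCh38.p14 is named, and single receptor genes were not placed in bins.

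Because the lines differ in 2 DNA methyltransferase genes, the CpG content of receptor promoters was counted in the RefSeq windows of 250 bases before to 50 bases after each gene's start. Of the 252 coding genes, 204 had a window. Their median was 1 CpG per window, against 22 over 15842 protein-coding genes, and 78.4% of receptor windows had at most 2 CpG, against 9.73% of all. The motif searched was CG, which reads the same on both strands. For many receptor genes the annotated start lies at the start codon, so a window need not hold the true promoter. One window is shown for the array that replicated latest (11q11) and one for the array with the largest gain in DKO1 (11q12 proximal), in each case the middle coding gene of the run that has a window. OR8K5 lies on the minus strand at chr11:56160268-56160567 and OR1S1 on the plus strand at chr11:58212470-58212769, both in GRCh38.p14. CpG is in capitals: OR8K5 has 0 and OR1S1 has 1. Methylation itself was not measured in these files.
OR8K5: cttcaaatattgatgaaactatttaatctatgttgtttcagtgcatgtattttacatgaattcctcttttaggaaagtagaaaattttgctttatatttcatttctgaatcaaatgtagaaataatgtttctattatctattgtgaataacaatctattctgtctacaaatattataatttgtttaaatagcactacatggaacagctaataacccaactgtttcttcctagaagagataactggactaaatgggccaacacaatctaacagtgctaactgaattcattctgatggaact
OR1S1: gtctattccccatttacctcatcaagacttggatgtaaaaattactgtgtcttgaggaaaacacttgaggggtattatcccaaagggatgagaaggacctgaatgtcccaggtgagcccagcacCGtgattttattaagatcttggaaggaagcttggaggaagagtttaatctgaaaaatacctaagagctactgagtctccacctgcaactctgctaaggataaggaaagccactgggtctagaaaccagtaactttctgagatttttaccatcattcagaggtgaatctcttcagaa

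The first comparison asked when the arrays replicate. They did not share a time. Mean shares per array spanned 4.69 to 88.8% in HCT116, and in DKO1 they spanned 10.1 to 81.9%. The median member bin had a share of 35.5% in HCT116 and 45.1% in DKO1, against 50.7 and 48.1% over all bins used. Of the 97 bins, 34 fell in the late class (bins were cut into 3 classes of like size by the average of both lines' shares), 48 in the middle class and 15 in the early class.

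The latest array was 11q11, on chromosome 11 from 55.0 to 56.6 Mb, next to the centromere. Its 14 bins in the table start at 55520001. Their mean share, 4.69% for HCT116 and 10.1% for DKO1, was the lowest of the 11 in both lines, and the bins lay at a median percentile of 4.21 of all bins used. Most of the array (over 50% of its called bins) was replicated at 40 to 60% progress in 0 of 138 HCT116 cells, where 3 counts would be 2.17% and the exact interval reaches 2.64%. Among 104 DKO1 cells it was 1. Even at 70 to 80% progress only 2 of 19 cells of HCT116 (10.5%, 1.30 to 33.1%) and 2 of 10 of DKO1 (20%, 2.52 to 55.6%) had passed that mark. The share climbed at the edge away from the centromere, from 2.04% in the lowest HCT116 bin to 13.8% in the last bin, and in the same last bin it was 29.4% in DKO1.

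The 1q23 array, from 158.3 to 159.0 Mb on chromosome 1, was next in HCT116, with a mean share of 12.5% in HCT116 and 21.7% in DKO1. In the RefSeq table its run goes from OR10T2 to OR10AA1P, 21 loci. The 9q31 array (chromosome 9, 107.2 to 107.5 Mb, OR13F1 to OR13D3P) followed in HCT116 with 22.7% and had 15.96% in DKO1. A group of intermediate late arrays came next in HCT116: 11q12 proximal (57.8 to 58.4 Mb) at 30.7%, 11q24 (123.6 to 124.5 Mb) at 31.5% and 1q44 (247.6 to 248.9 Mb) at 32.5%. In HCT116 these shares differed by under 2 points. Most of the array was replicated in 21.6% (17.2 to 26.5%), 15.9% (12.1 to 20.4%) and 25% (20.3 to 30.2%) of cells over all strata. The measures thus ranked 11q12 proximal and 11q24 differently. These intervals overlap, but the same cells were scored for each array, so the overlap does not settle their order. Among HCT116 cells with most of only a single member of a pair replicated, 53 of 78 held 1q44 rather than 11q24. It was 45 of 72 for 11q12 proximal over 11q24, and 50 of 89 for 1q44 over 11q12 proximal. In DKO1 11q12 proximal and 11q24 stayed close, at 48.0 and 48.1%, and 1q44 stood apart at 14.82%.

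The 6p22 array, from 29.0 to 29.6 Mb on chromosome 6 at the edge of the extended major histocompatibility region, was intermediate at 50.9% in HCT116 and 57.4% in DKO1. The 11p15 array (4.4 to 6.3 Mb, 22 bins) had 54.8 and 59.7%. The earliest arrays were 9q33 (chromosome 9, 125.2 to 125.6 Mb, OR1J2 to OR1K1) at 70.7 and 74.0%, 11q12 distal (59.0 to 59.5 Mb) at 74.6 and 74.9%, and 14q11 (chromosome 14, 20.2 to 20.8 Mb) at 88.8 and 81.9%. The 14q11 value rests on 3 of 8 grid positions, from 20560001 to 20800000, at the distal end of the array, and the 1q44 value on 4 of 17, from 247600001 to 248000000. These values do not describe the rest of those arrays.

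**Figure D1:**
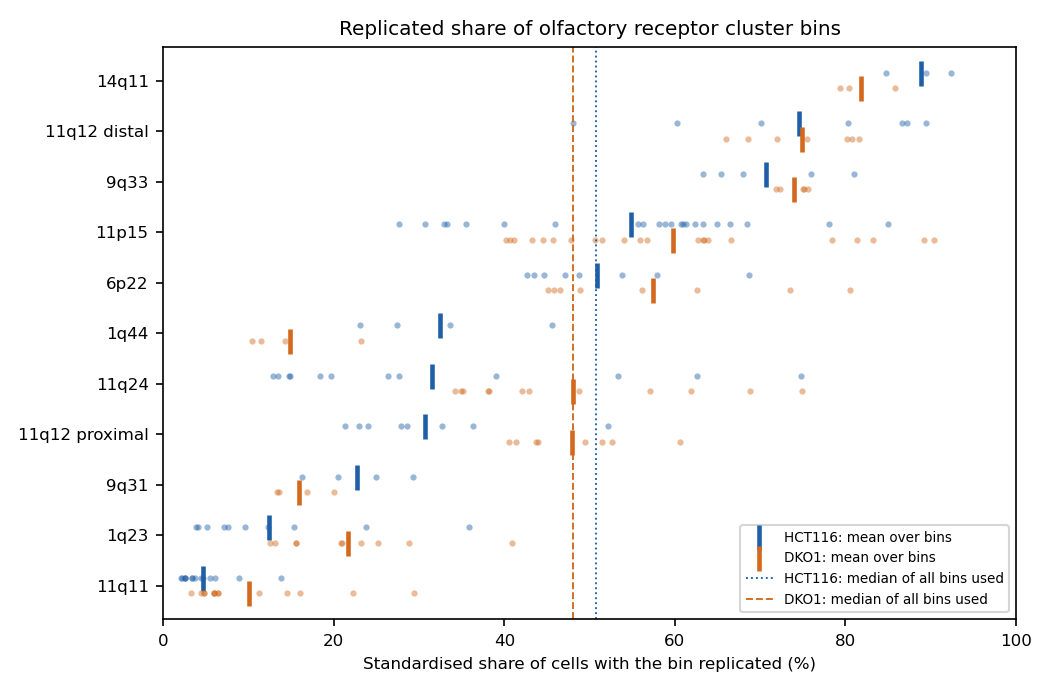
Standardised share of cells with a bin replicated (x axis, %) for each of 11 olfactory receptor arrays (y axis, ordered by the HCT116 mean); points are single 80 kb bins, vertical ticks the mean over an array's bins, and vertical lines the median of all 27142 bins used in each line. Array means run from 4.69 to 88.8% in HCT116, and 1q44, close to 11q12 proximal and 11q24 in HCT116, lies apart from both in DKO1.

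A logistic curve of the replicated part of an array against cell progress, with progress taken from the other chromosomes, gave the progress at which 50% of the array was replicated. In HCT116 it was 22.4% for 14q11, 30.2% for 11q12 distal, 36.9% for 9q33, 46.5% for 11p15 and 50.2% for 6p22. It was 61.6% for 1q44, 64.5% for 11q12 proximal, 65.6% for 11q24, 68.1% for 9q31 and 78.0% for 1q23. The fitted 91.6% for 11q11 lies past the most advanced HCT116 cell (77.6%) and is an extrapolation, as is the 78.0%.

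Cells of higher progress had replicated most of a larger number of arrays. At 20 to 30% progress the median HCT116 cell had replicated most of 1.5 of the 11 arrays, at 40 to 50% 3, at 60 to 70% 6 and at 70 to 80% 8. The DKO1 medians in the same strata were 1, 4, 7 and 8. Where a cell had replicated most of only a single member of a pair of arrays, it was the later array of the pair in 8.32% of 7658 such cases over the 55 pairs in HCT116 and in 9.36% of 5042 in DKO1. The order of a pair was set by the shares of both lines together, from the same cells, so these values are not independent of it. In some pairs that order was the opposite of a line's own, and cells in the line's own order counted as reversed. The share of 11q24 minus that of 1q44 was -0.98 points in HCT116, where 53 of 78 cells held 1q44. The share of 1q44 minus that of 1q23 was -6.85 points in DKO1, where 19 of 33 cells held 1q23. Reversals gathered in pairs of similar share: in HCT116 45 of the 72 cells that had replicated a single one of 11q24 and 11q12 proximal held the latter, and in DKO1 26 of 60 did.

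**Figure D2:**
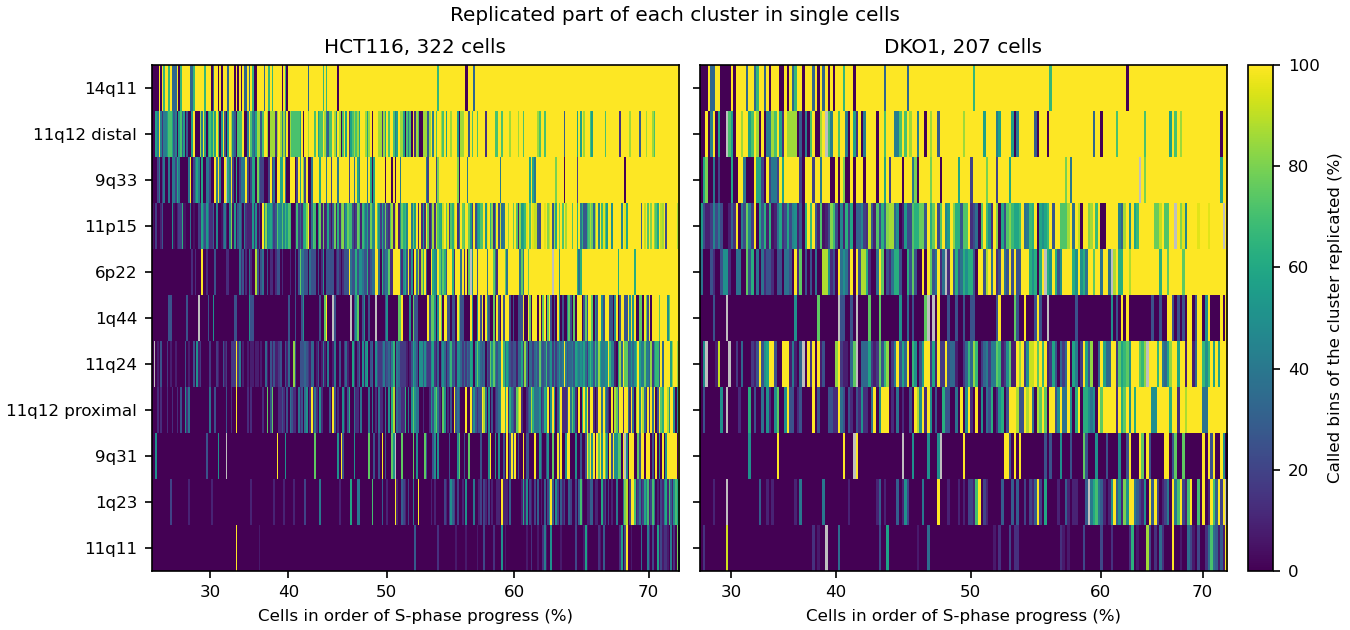
Replicated part of each array (colour, percent of its called bins, grey where none was called) in every cell, with cells in order of S-phase progress (x axis) and arrays in order of the HCT116 share (y axis), for 322 HCT116 cells and 207 DKO1 cells. The boundary from unreplicated to replicated moves broadly to the right from 14q11 down to 11q11 in HCT116, while in DKO1 it lies further right at 1q44 and 9q31 than at 1q23. The 11q24 array is filled in part in many cells of both lines (74.7% of HCT116 and 60.2% of DKO1 cells at 20 to 80% progress).

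How often an array was caught partly replicated differed between the arrays. At 40 to 60% progress, 11q24 held both replicated and unreplicated bins in 112 of 138 cells of HCT116 (81.2%) and 76 of 103 of DKO1 (73.8%), and 11p15 in 82.6 and 76.0% of cells. For 14q11, which has 3 bins, it was 3.62 and 4.81%. At 6p22 it was 61.3 and 59.8%, at 11q12 proximal 59.4 and 51.9%, and at 11q12 distal 52.2 and 21.2%. Lower HCT116 values were those of 1q44 (32.6%, DKO1 20.2%), 1q23 (29.0%, DKO1 35.9%) and 9q31 (21.9%, DKO1 10.9%). The 9q33 values were 17.4 and 12.5%, and those of 11q11 6.52 and 13.5%. The arrays differ in their number of bins, which these values do not allow for. Along 11q24 the HCT116 share ran from 12.9% in its lowest bin to 74.8% at the distal edge, a range of 61.9 points, and along 11p15 from 27.6 to 85.0%. The 9q33 array had a range of 17.6 points in HCT116 and 3.83 points in DKO1. The range over bins was smaller in DKO1 in 9 of 11 arrays, the others being 6p22 (26.0 points in HCT116, 35.4 in DKO1) and 11q11 (11.8 and 26.2). Over 3231 windows of 8 consecutive bins genome-wide the range was also smaller in DKO1 in 67.3%, so flatter profiles are not particular to the arrays. This measure was chosen after the profiles were seen.

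By the mean shares of their flanks, most arrays with bins on both sides lay in a valley of the timing profile. Of 8 arrays with used bins within 1 Mb on both sides, 6 had a lower mean share than both flanks in HCT116 and 5 in DKO1. The 1q44 array is counted in both lines, but its higher-coordinate flank is 1 bin, and most of that array's positions are missing. How often other stretches of the genome lie below both flanks was not computed. The 1q23 array was 37.0 and 34.7 points below its flanks in HCT116, and 11q24 was 42.8 and 40.2 points below. In DKO1 the 11q24 valley was shallower, at 15.5 and 31.2 points. The 6p22 array was below both flanks in HCT116 (by 9.28 and 37.3 points) but 8.35 points above its lower-coordinate flank in DKO1. By contrast, 11q12 distal formed a peak, 47.4 and 15.2 points above its flanks in HCT116, and 9q31 sat on a slope, 13.9 points above the later flank and 28.3 points below the earlier one. Part of the flanks between the 11q12 arrays belongs to the neighbouring array.

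**Figure D3:**
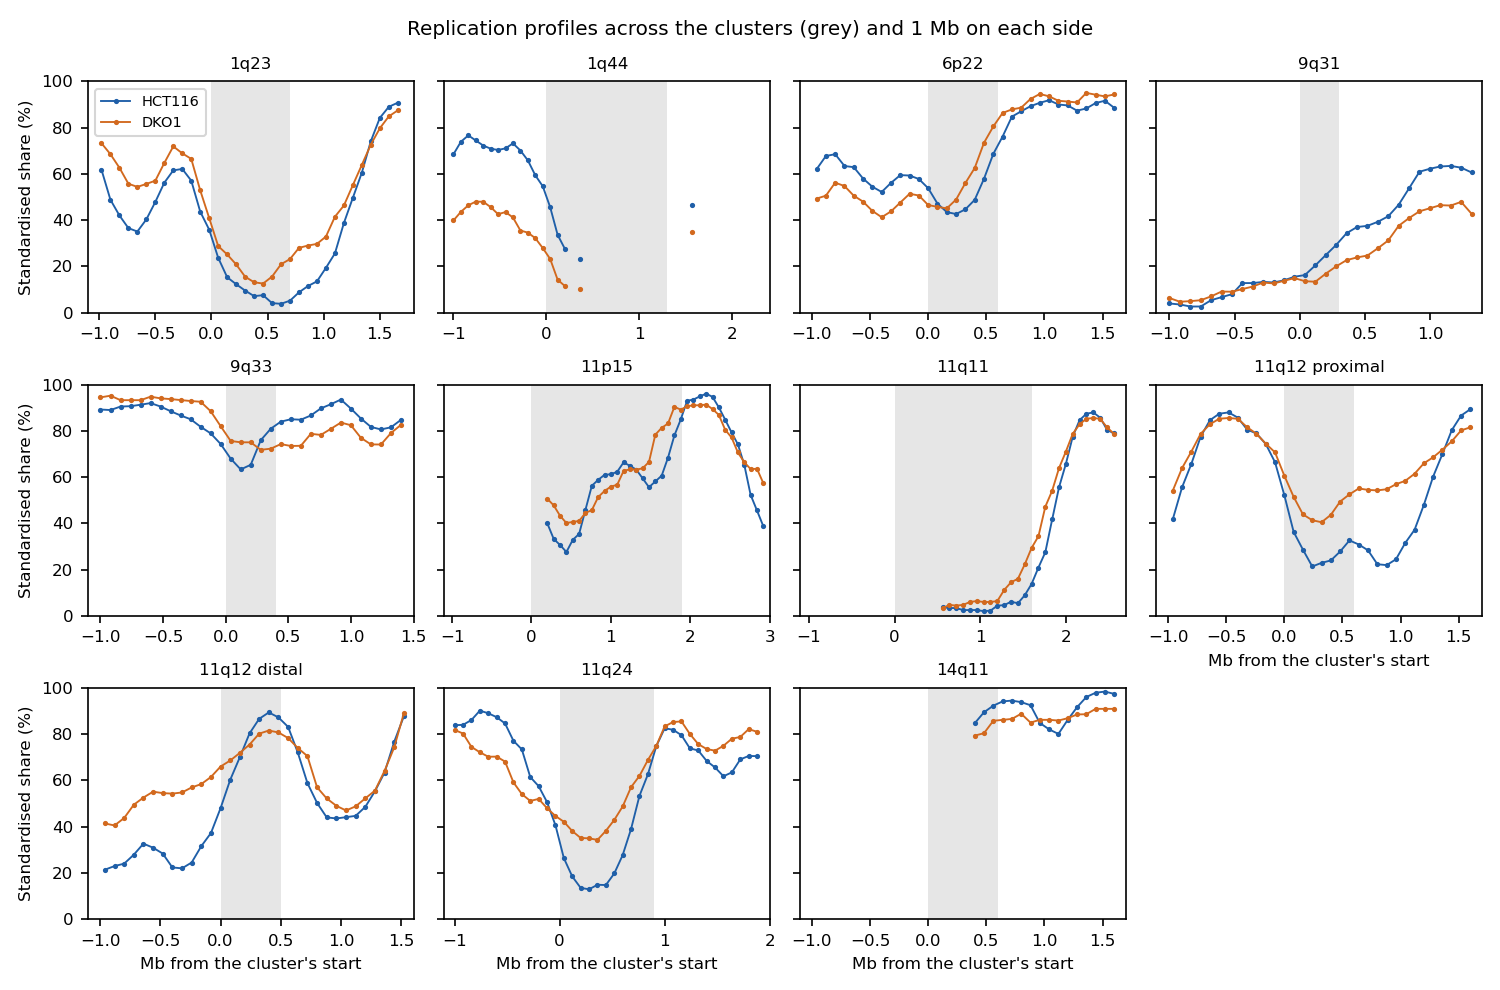
Standardised share (y axis, %) of each bin used in HCT116 (blue) and DKO1 (orange), by distance from the array's start in Mb (x axis); the array is grey and 1 Mb is shown on each side, with lines broken where no bin was used. The valleys at 11q24 and 11q12 proximal are shallower in DKO1, while 1q44 and the flank beside it are lower throughout.

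The next comparison asked whether the arrays replicate at the same progress in both lines. Averaged over the 11 arrays, HCT116 had a share of 43.1% and DKO1 of 46.0% (2.92 points higher), and 8 arrays were higher and 3 lower in DKO1. The mean over arrays hides gains and losses: without the arrays of chromosome 11 it was -2.07 points, with 3 of 6 arrays higher. Of the 97 bins, 23 (23.7%) were at least 15 points higher in DKO1, where the genome-wide share of such bins was 6.90%, and 3 (3.09%) were at least 15 points lower, against 7.39% genome-wide. At thresholds of 10 and 20 points 37 and 9 member bins were higher, with 14.71 and 3.24% of all bins, and 5 and 1 were lower, with 14.84 and 3.57%. Neighbouring bins share their replication, and 16 of the 23 lie in 11q12 proximal and 11q24, so the bins are not independent observations. In the remaining 77 bins 7 were higher by that rule. On chromosome 11 as a whole, 9.08% of 1520 bins were at least 15 points higher.

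By class, the late member bins differed by a median of 5.05 points (4.65 over all late bins) and the early ones by -4.83 points (-2.30 over all early bins). Late receptor bins thus differed between the lines about as much as other late bins. Middle-class member bins differed by 10.2 points, where all middle bins had -2.24, and 36 of these 48 bins (75%) were higher in DKO1, against 42.9% of all middle bins. These 48 bins include all 8 of 11q12 proximal and part of 11q24, arrays in which every bin was higher in DKO1. Most of the 48 lie on chromosome 11, where the median difference over 1520 bins used was 2.67 points. The middle-class values therefore do not describe receptor arrays in general. Of the late bins 76.5% of members and 76.9% of all were higher.

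The largest gain was at 11q12 proximal, whose run in the RefSeq table goes from OR5BA1P to OR5B21. Its share stood at 30.7% in HCT116 and 48.0% in DKO1, which is 17.2 points higher, and 7 of its 8 bins passed 15 points. In the stratum of 40 to 50% progress most of the array was replicated in 3 of 60 cells of HCT116 (5%, 1.04 to 13.9%) and 12 of 53 of DKO1 (22.6%, 12.3 to 36.2%). At 60 to 70% it was replicated in 35 of 82 cells of HCT116 (42.7%, 31.8 to 54.1%) and 35 of 40 of DKO1 (87.5%, 73.2 to 95.8%), intervals that do not overlap. The fitted progress at 50% was 64.5% in HCT116 and 50.8% in DKO1. The gain was not centred on the array. The bins within 1 Mb below 11q12 distal were on average 24.8 points higher in DKO1 (12 bins, 5 of them in 11q12 proximal). Every bin used between these arrays differed by more than 21.6 points, the largest bin difference inside 11q12 proximal. The largest differences of this region thus lay outside the receptor array.

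A similar gain was seen at 11q24 (OR6X1 to OR8Q1P, 44 loci), with 31.5% in HCT116 and 48.1% in DKO1, 16.6 points, and 9 of 12 bins past 15 points. The largest bin difference was 23.5 points, from 124000001 to 124080000, and the smallest was 0.11 points at the distal edge, which was at 74.8 and 74.9%. At 30 to 40% progress most of the array was replicated in 1 of 48 cells of HCT116 (2.08%, 0.0527 to 11.1%) and 10 of 40 of DKO1 (25%, 12.7 to 41.2%). At 60 to 70% it was 22 of 82 (26.8%, 17.6 to 37.8%) and 30 of 39 (76.9%, 60.7 to 88.9%).

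The size of the 11q24 difference changed with the cells that were included. On chromosome 11, 24 of 207 DKO1 cells (11.6%) and 1 of 322 HCT116 cells had a replicated share over 15 points away from the chromosome's relation to progress, 16 of the 24 above it. Without such cells the 11q24 difference was 12.3 points, under the rule of 15, and at 30 to 40% progress 0 of 47 cells of HCT116 (0 to 7.55%) and 3 of 30 of DKO1 (10%, 2.11 to 26.5%) had replicated most of it. Among DKO1 cells at 40 to 60% progress, most of 11q24 was replicated in 31 of 58 cells (53.4%, 39.9 to 66.7%) with code 0 in over 1% of bins, and in 8 of 45 (17.8%, 8.002 to 32.1%) with less. The corresponding HCT116 values were 6 of 35 (17.1%) and 8 of 103 (7.77%). Median progress in these groups was 51.1 and 48.5% for DKO1 and 49.3 and 52.4% for HCT116. With only the cells of little code 0, at 30 to 70% progress, the 11q24 difference was 9.19 points, against 20.7 with all cells of those strata. The part of these cells in the 11q24 result was not tested.

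At 11q12 proximal the same settings left the difference in place: 17.6 points without cells with an outlying chromosome 11 and 20.6 points with cells of little code 0. Among DKO1 cells at 40 to 60% progress it was mostly replicated in 14 of 45 cells (31.1%) with little code 0 and 21 of 59 (35.6%) with more. The 11q12 proximal and 11q24 arrays were not replicated in the same DKO1 cells throughout: of 103 cells at that progress 18 had replicated most of both, 17 only 11q12 proximal, 21 only 11q24 and 47 neither.

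The 1q44 array was lower in DKO1. Its 4 bins had a mean share of 32.5% in HCT116 and 14.82% in DKO1 (-17.6 points), and its first 3 bins account for all 3 member bins past -15 points. The lines had similar values up to 50% progress, at 40 to 50% with 3 of 57 cells of HCT116 (5.26%, 1.099 to 14.6%) and 4 of 49 of DKO1 (8.16%, 2.27 to 19.6%). They separated later. At 50 to 60% it was 23 of 78 (29.5%, 19.7 to 40.9%) and 4 of 50 (8%, 2.22 to 19.2%), and at 70 to 80% 17 of 19 (89.5%, 66.9 to 98.7%) and 3 of 10 (30%, 6.67 to 65.2%). In between, at 60 to 70%, the values were 36 of 82 (43.9%, 32.96 to 55.3%) and 8 of 40 (20%, 9.05 to 35.6%), whose intervals overlap. The flank towards the centromere was lower as well, by 28.7 points over 13 bins, so the array shared in a difference of the neighbouring domain. With code 0 counted as unreplicated, which left 5 strata with enough cells in place of 6, the 1q44 difference was -10.1 points.

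**Figure D4:**
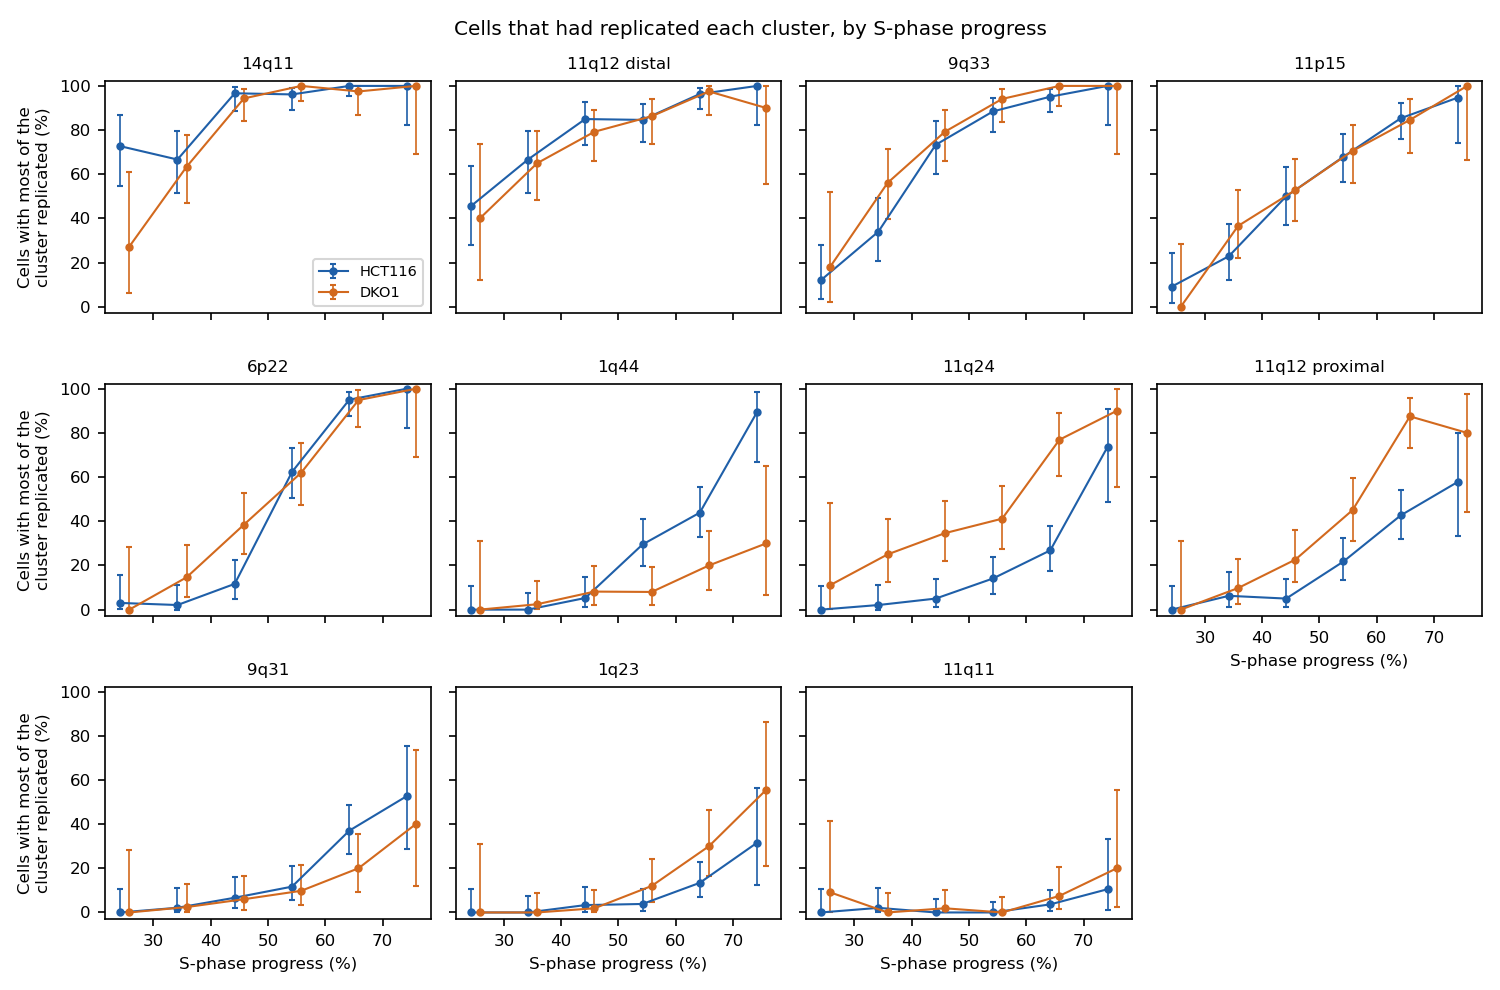
Percent of cells with most of an array replicated (y axis) by stratum of S-phase progress (x axis, midpoints of 10-point strata, the lines offset sideways) in HCT116 (blue) and DKO1 (orange); bars are exact 95% binomial intervals over cells and cover counting error only. At 60 to 70% progress the intervals lie apart for 11q12 proximal and 11q24, for 1q44 they lie apart at 50 to 60 and 70 to 80%, and the intervals overlap at 60 to 70% for 14q11, 9q33, 11p15 and 6p22.

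The other arrays differed by less than 10 points on average. At 1q23 the difference was 9.22 points, all 10 bins were higher in DKO1, and the last 2 bins passed 15 points (3.83 and 20.9%, and 5.18 and 23.2%). Most of 1q23 was replicated in 22 of 320 cells of HCT116 (6.88%, 4.36 to 10.2%) and 24 of 203 of DKO1 (11.8%, 7.72 to 17.1%) over all strata. The 1q23 difference was 4.77 points with cells of little code 0. The flanks of 1q23 were higher in DKO1 too, by 13.3 points on the lower-coordinate side and 7.11 points on the other. At 6p22 the difference was 6.47 points, from -7.28 points in the first bin to 15.6 in the seventh. In its stratum of 40 to 50% progress 7 of 60 cells of HCT116 (11.7%, 4.82 to 22.6%) and 20 of 52 of DKO1 (38.5%, 25.3 to 53.0%) had replicated most of it, while at 50 to 60% the values were 62.3 and 62%.

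At 11p15 the mean difference of 4.95 points combined higher ends with a lower middle: 20.2 and 20.7 points in the bins from 5920001 to 6080000, 12.5 points in the bin from 4800001, the latest of the array in both lines, and -10.5 points in the bin from 5120001. The 11q12 distal array had a mean difference of 0.37 points, made of 18.0 points in its first bin and -7.83 points in its sixth. Its sign was negative under 2 of 10 other settings. At 9q33 the difference was 3.26 points, with 3 of 5 bins higher.

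For 11q11 the difference was 5.41 points, and only the last of its 14 bins passed 15 points. It was 0.20 points with cells of little code 0 and 1.70 with all cells of the same strata, 30 to 70%. The 9q31 array was lower in DKO1 in all 4 bins, with a mean difference of -6.76 points. Its higher-coordinate flank differed more, by -14.0 points over 13 bins, and its lower-coordinate flank by 0.63 points. The 14q11 array was lower in its 3 bins, with a mean difference of -6.99 points. At 20 to 30% progress it was replicated in 24 of 33 cells of HCT116 (72.7%, 54.5 to 86.7%) and 3 of 11 of DKO1 (27.3%, 6.02 to 61.0%), and from 40% progress on it was replicated in over 94% of the cells of both lines in every stratum. At 30 to 70% progress it was 2.92 points with cells of little code 0 and -0.63 points with all cells of those strata.

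The last comparison asked how much single cells of a line differ from each other in the arrays. Pairs of cells at 40 to 60% progress, within 5 points of each other, differed in 25.7% of the member bins in HCT116 (138 cells, 4124 pairs) and 28.7% in DKO1 (104 cells, 2329 pairs), a ratio of 1.12. Over all bins used the values were 17.1 and 23.1%, a ratio of 1.35. Pairs of DKO1 cells differed more in 6 of 11 arrays. The gap was widest at 11q24, at 24.6% of bins for HCT116 pairs and 43.4% for DKO1 pairs, followed by 11q12 proximal with 34.7 and 45.6%. At 1q44 it ran the other way, with 33.5% in HCT116 and 20.7% in DKO1. Pairs differ most often in a bin that about as many cells have replicated as not, so this measure depends on timing. At 40 to 60% progress the mean replicated part of 11q24 was 27.4% in HCT116 and 43.2% in DKO1. For 11q12 proximal it was 26.6 and 43.1%, and for 1q44 25.6 and 11.4%. Whether cells of a line differed beyond what these levels give was not tested.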

How the data were processed

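The values the authors deposited are state codes, treated as a score of 0, 1 or 2 for each cell in each 80 kb bin, and the deposited table's name describes them as binarised hidden Markov model output. Tools and builds in the submitters' processing notes are SAMtools 1.10, bedtools 2.26.0 and Cell Ranger, with hg19 and GRCh37. Neither the model's software nor the read depth was given in the sources used here. The file defines no code. Replicated was assigned to code 2 and unreplicated to code 1, since across 21 chromosomes the share of code 2 followed gene density in the GRCh38.p14 table (Spearman's rho 0.85 in both lines, over chromosomes), with code 0 left out as no call. A bin needed calls in 90% of each line's cells, and strata needed 5 cells of each line. The G1 libraries were not analysed here. A chromosome's relation to progress was a cubic curve per line. Receptor runs joined loci under 400 kb apart and needed 12 loci. All 11 arrays are described, and bins are named at the extremes of an array or past 15 points. Members, lists and settings were chosen with earlier results of these data known. Functions were tested on simulated data. Python 3.11.15, numpy 2.4.6, pandas 2.3.3 and scipy 1.17.1 were used.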

Additional observations from a re-analysis of the deposited data

Results flagged for a closer look

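Code 0, which the comparisons leave out, was more frequent in the member bins of DKO1 than in those of the parental line, at 1.97% of calls against 0.317%. The highest DKO1 values were 3.58% at 11q24, 3.10% at 11p15 and 3.02% at 1q44, where HCT116 had 0.751, 0 and 1.63%. Over the whole table code 0 took 2.80% of DKO1 and 1.08% of HCT116 calls. What the code stands for is not defined in the table.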

How the results depend on the processing

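No paired analysis was possible because each line is 1 S-phase library. Under a call minimum of 99%, 36 bins of 5 arrays were left, 4 arrays were higher in DKO1, the mean difference was 7.72 points, 9 bins were at least 15 points higher and 0 lower. Without the arrays of chromosome 11 the mean was -2.07 points, with 3 of 6 arrays higher. There 3 of 34 bins were at least 15 points higher, where 6.90% of all bins were. Without matching of progress 15 bins were higher, and with code 0 as unreplicated (5 strata in place of 6) 1 was lower. The shares of all bins called under these settings and under the call minimum of 99% were not computed. At a threshold of 10 points 37 bins were higher and 5 lower (14.71 and 14.84% of all bins), and at 20 points 9 and 1 (3.24 and 3.57%). The other settings for these counts and the mean (every bin with a call, strata of 5 points, progress from the other chromosomes, cells of little code 0, no outlying chromosomes, bins wholly inside an array, and the strata of 30 to 70% with all cells, which was chosen after seeing the data) kept the counts within 1.5 times. Over these, the unmatched cells and code 0 as unreplicated, the mean difference ran from 2.53 to 4.75 points, the highest with all cells of the strata of 30 to 70%. By array, the difference ran from 16.7 to 20.9 points at 11q12 proximal, 9.19 to 20.7 at 11q24, -18.7 to -10.1 at 1q44, 4.77 to 9.53 at 1q23, 2.81 to 8.89 at 6p22, 3.10 to 6.72 at 11p15, 3.11 to 7.41 at 9q33, -10.04 to -4.43 at 9q31, 0.20 to 7.31 at 11q11, -1.78 to 7.21 at 11q12 distal and -6.99 to 2.92 at 14q11. The cause of these shifts was not tested. Depth per cell is unknown, and strata under 30% and over 70% hold as few as 10 DKO1 cells.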

Other observations

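Other receptor arrays outside the listed ones, placed from general knowledge of hg19, also had no common time. On chromosome 17 (2880001 to 3440000) HCT116 had a share of 88.6% and DKO1 of 89.4%. On chromosome 19 it was 83.8 and 92.7% from 14800001 to 15360000, and 36.4 and 47.5% from 9040001 to 9520000. On chromosome 12 (55360001 to 56160000) it was 67.6 and 73.7%, and on chromosome 3 (97680001 to 98000000) 47.9 and 44.3%. Of these 32 bins 3 were at least 15 points higher in DKO1 and 0 lower, where 6.90 and 7.39% of all bins were. So few bins do not set these arrays apart from the genome.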
